A study of Bos taurus with 24 samples.

Results

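The CTSW to FOSL1 locus is a stretch of bovine chromosome 29 that holds the genes CTSW, FIBP, CCDC85B and FOSL1 and the gene-free intervals between them. It was taken as all table rows from the start of the CTSW row to the end of the FOSL1 row, which gave 7 of the 59846 rows, 4 with a gene symbol and 3 without. The window was selected on measured values of these samples. CTSW and the interval between CCDC85B and FOSL1 had been noticed by the difference between breeds in their response to lipopolysaccharide (LPS) at 2 h, and FIBP by the same difference at 8 h. That difference, the response within each breed and the breed difference at each hour, which are its parts, are therefore given as descriptions without a test for all rows. CTSW, FIBP and the interval between CCDC85B and FOSL1 are described without a test throughout. The other 4 rows entered by their position. Of these, the 3 that had enough counts were tested for LPS with the breeds combined and for breed with the hours summed, in the same samples.

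The cells were dermal fibroblasts grown from shoulder skin of 4 Angus (beef) and 4 Holstein (dairy) heifers of *Bos taurus* in the second year of life, each culture standing for 1 animal. All cultures had been frozen and were used at an early passage. RNA was taken before LPS (0 h) and 2 h and 8 h after 100 ng/ml LPS was added, which made 24 samples in 6 groups of 4, and lysates of duplicate wells were pooled for each sample. The same animals were sampled at every hour, and none of the 24 samples was kept without LPS to 2 h or 8 h, so time in culture and LPS cannot be told apart.

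Fibroblast markers were high in every sample, and all 10 genes of that list, such as COL1A1, DCN and PDGFRA, were above 1 CPM (counts in a library of 1000000, scaled by the TMM method) in every group. The summed level of 4 keratinocyte markers (KRT5, KRT14, CDH1 and DSG3) was 10.8 to 13.2 CPM in the samples of Holstein animal 1 and at most 0.89 CPM elsewhere. With each animal left out in turn, the log2 fold changes of Holstein over Angus at 0 h ran from -2.17 to -1.55 for FOSL1 and from -1.59 to -0.975 for CCDC85B. At 8 h they ran from -1.16 to -0.93 and from -1.40 to -0.93. The part of keratinocytes in these differences was not tested. Total counts ran from 51014538 to 104406293 per sample, so that a count of 3 was at most 0.066 CPM. The reads of COL1A1 had been counted in another way in 4 samples, where a count stood for 66.2 to 67.1 covered bases, while it stood for 111.8 to 119.0 elsewhere. They were Angus animal 4 and Holstein animals 2 and 4 at 0 h, and Angus animal 3 at 2 h, and both values are given where a result changed without them.

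LPS is sensed by fibroblasts through Toll-like receptor 4, and signalling through NF-kB and MAP kinases then switches on a wave of early genes that include transcription factors of the AP-1 family. *FOSL1* encodes FRA-1, a FOS-related partner of JUN proteins in AP-1. *CTSW* encodes cathepsin W, a cysteine protease known from natural killer and cytotoxic T cells, *FIBP* encodes a protein that binds acidic fibroblast growth factor inside the cell, and *CCDC85B* encodes a small coiled-coil protein that acts as a repressor of transcription.

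On the genome build UMD v3.1, the CTSW row lay on the plus strand from 44661698 to 44665098 (3401 bases). FIBP lay on the minus strand from 44665294 to 44669337 (4044 bases), CCDC85B on the plus strand from 44671368 to 44672651 (1284 bases) and FOSL1 on the minus strand from 44672788 to 44679319 (6532 bases). CTSW and FIBP thus faced each other with their 3′ ends, 195 bases apart (44665099 to 44665293). CCDC85B and FOSL1 also faced each other with their 3′ ends, only 136 bases apart (44672652 to 44672787). FIBP and CCDC85B were divergent, and their starts were separated by 2030 bases (44669338 to 44671367). Each gene row is a whole gene span with exons, introns and untranslated regions together, and whether its counts took account of strand is not known. No row of the table overlapped another in this window. In the RefSeq gene table of another assembly (ARS-UCD2.0) the same 4 genes were neighbours with no other gene between them, and there the span of FIBP contained that of CTSW.

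**Figure D1:**
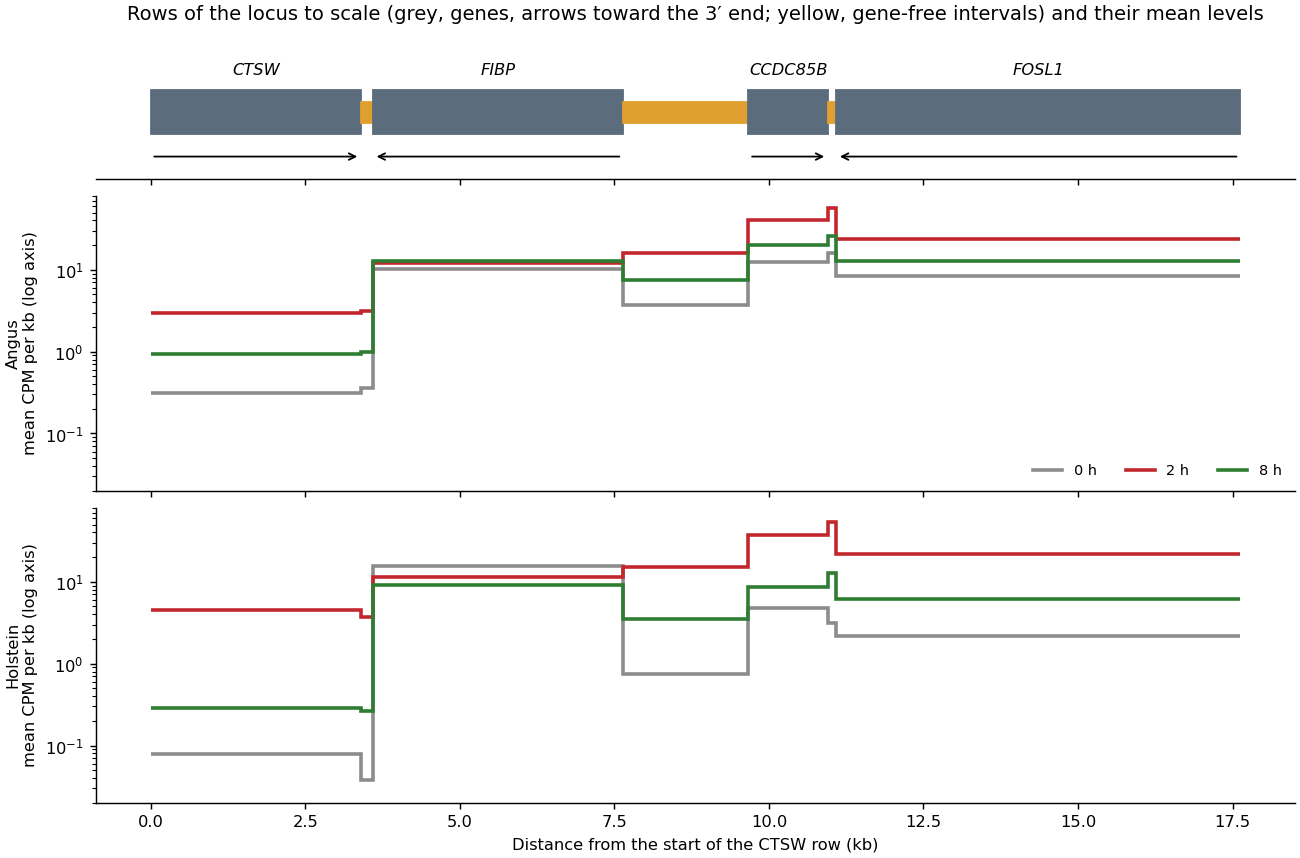
The 7 rows are drawn to scale in kb from the start of CTSW, and the stepped lines give the mean level of each row in CPM per kb of its length on a log axis, for 4 Angus (middle) and 4 Holstein animals (bottom) at 0 h, 2 h and 8 h. The 2 h line is above the 0 h line over every row except FIBP in Holstein, where the 0 h mean was 15.4 and the 2 h mean 11.5 CPM per kb.

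FOSL1 was abundant in these fibroblasts and rose within 2 h in every animal. At 0 h its level was 66.5, 35.3, 23.6 and 91.5 CPM in Angus animals 1 to 4. In Holstein animals 1 to 4 it was 15.4, 9.96, 15.5 and 16.2 CPM, so that every Holstein sample lay below every Angus sample, as was also the case for 8.82% of the 20385 rows tested. At 2 h it was 163, 119, 178 and 158 CPM in the Angus animals. The Holstein animals at 2 h had 153, 157, 119.7 and 141 CPM, and the breeds now overlapped. At 8 h it was 106, 66.6, 69.2 and 93.6 CPM in Angus and 46.8, 39.8, 36.2 and 37.4 CPM in Holstein, again with no overlap, a pattern shared by 9.66% of 20679 rows. The level at 8 h was below that at 2 h and above that at 0 h in 8 of 8 animals, although in Angus the 8 h level was as little as 1.023 times the 0 h level.

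CCDC85B, the convergent neighbour of FOSL1, showed the same order of groups. Its mean level in Angus was 15.8 ± 9.32 CPM at 0 h, 51.9 ± 14.1 at 2 h and 25.6 ± 9.40 at 8 h (SD, n = 4). In Holstein it was 6.14 ± 0.86, 47.3 ± 9.86 and 11.2 ± 3.42 CPM. The individual values at 0 h were 20.2, 7.24, 8.82 and 26.7 CPM in Angus animals 1 to 4 and 6.12, 6.15, 5.10 and 7.20 CPM in Holstein animals 1 to 4. The breeds did not overlap at 0 h, although Angus animal 2 was close to Holstein animal 4. At 2 h it had 68.3, 34.5, 48.5 and 56.1 CPM in Angus and 53.5, 46.8, 33.5 and 55.2 CPM in Holstein, with the breeds interleaved. At 8 h it had 38.5, 18.2, 19.0 and 26.8 CPM in Angus and 15.9, 11.6, 8.43 and 8.97 CPM in Holstein, without overlap. Every Holstein sample lay below every Angus sample in 8.82% of all rows tested at 0 h and in 9.66% at 8 h.

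CTSW was low before LPS. At 0 h the Angus animals had 0.996, 0.606, 0.427 and 2.27 CPM, from 82, 52, 39 and 233 counts. The Holstein animals had 0.269, 0.248, 0.320 and 0.241 CPM, from 18, 17, 29 and 11 counts. All Holstein values were below the lowest Angus value, and Angus animal 4, one of the samples in which COL1A1 was counted in another way, was the highest. At 2 h CTSW reached 7.63, 9.23, 14.7 and 8.93 CPM in Angus, and in Holstein 20.4, 20.3, 8.64 and 12.5 CPM. Holstein animals 1 and 2 were the highest samples, while Holstein animals 3 and 4 lay within the range of Angus. At 8 h the level was 3.57, 2.49, 2.28 and 4.24 CPM in Angus and 0.935, 1.18, 0.846 and 0.923 CPM in Holstein, without overlap. The share of tested rows with Holstein wholly below Angus was 8.82% at 0 h and 9.66% at 8 h.

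Because cathepsin W is best known from lymphocytes, the levels of a list of 16 lymphocyte markers were read beside it. The summed level of the list was 1.36 to 3.17 CPM at 0 h, 1.796 to 2.67 at 2 h and 1.87 to 3.66 at 8 h in Angus. In Holstein it was 2.23 to 3.94 CPM at 0 h, 2.68 to 3.59 at 2 h and 2.36 to 3.73 at 8 h. The ranges of 0 h and 2 h overlapped in both breeds. Animal by animal, the sum was higher at 2 h than at 0 h in 2 of 4 Angus and 1 of 4 Holstein animals, and CTSW in 8 of 8 animals. Of the 16 genes, 4 had counts in every sample and 6 had 3 counts or fewer over all samples. The 4 were CD247, a signalling chain of the T cell receptor, with 0.443 to 2.14 CPM, PTPRC (CD45), carried by all leukocytes, with 0.274 to 0.706 CPM, the cytotoxic protease GZMA with 0.06 to 0.887 CPM and CD8B with 0.03 to 0.391 CPM. CD3G reached 0.794 CPM. GZMB and NCR1, markers of cytotoxic and natural killer cells, had 0 counts in all 24 samples, and CD2, NKG7 and GNLY had 3 counts each over all samples.

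The summed level of 6 myeloid markers, like CTSW, was higher at 2 h than at 0 h in 8 of 8 animals. It was 2.78 to 4.74 CPM at 0 h and 4.34 to 4.96 CPM at 2 h in Angus, and 1.85 to 2.92 CPM at 0 h and 4.02 to 5.31 CPM at 2 h in Holstein, where the hours did not overlap. At 8 h the Angus samples had 4.199 to 4.83 CPM, and those of Holstein 2.66 to 5.199 CPM. The sum was higher at 8 h than at 0 h in 3 of 4 Angus and 4 of 4 Holstein animals. CTSW was lower at 8 h than at 2 h in 8 of 8 animals. The myeloid sum was lower at 8 h than at 2 h in Angus animals 1, 2 and 4 and Holstein animals 1 and 2. It was higher at 8 h in Angus animal 3 and Holstein animals 3 and 4. CD68, a lysosomal protein of macrophages, held most of it with 1.34 to 4.30 CPM, while TYROBP had 2 counts over all samples. The part of lymphocytes or myeloid cells in the CTSW result was not tested. In cultures of this kind, a change in RNA per cell and a change in the number of cells of a type cannot be told apart.

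By its read counts, FIBP took another course from the 3 other genes. In Angus it was 33.8, 57.2, 38.2 and 35.8 CPM at 0 h, 48.4, 53.8, 44.4 and 50.5 at 2 h and 41.9, 61.0, 67.6 and 39.0 at 8 h. In Holstein it was 68.1, 58.0, 61.0 and 62.5 CPM at 0 h, 49.8, 48.1, 38.7 and 49.8 at 2 h and 32.1, 40.4, 35.7 and 37.7 at 8 h. Every Holstein animal was above every Angus animal at 0 h, as in 8.49% of all rows tested, and the breeds overlapped at 2 h and 8 h. The level at 8 h was higher than at 0 h in 4 of 4 Angus animals and lower in 4 of 4 Holstein animals.

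**Figure D2:**
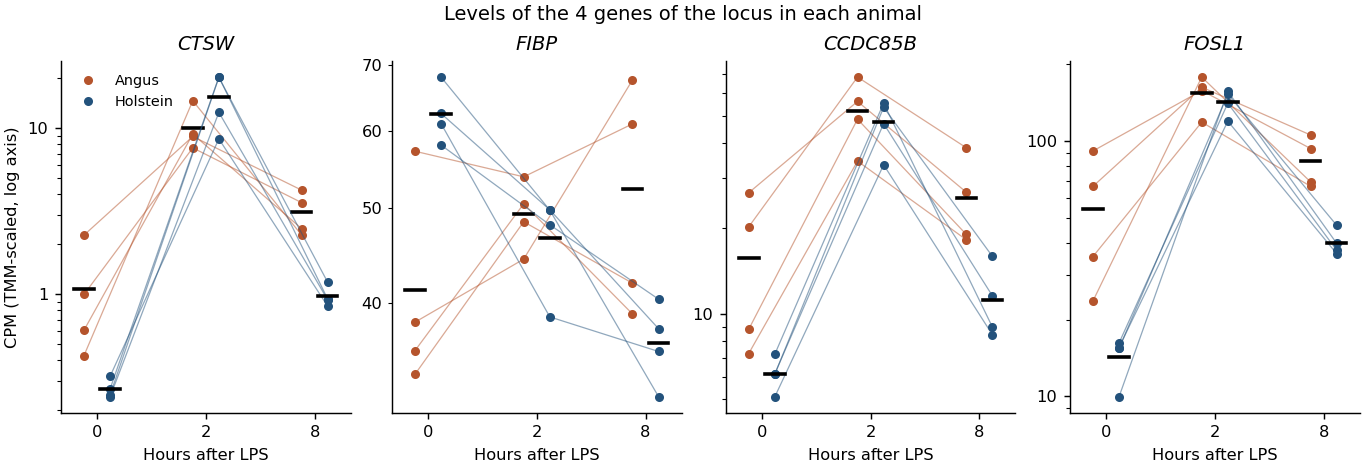
Level of each gene in CPM on a log axis against hours after LPS, with 1 point per animal, thin lines joining the samples of an animal, and thick black bars for the mean of 4 animals. CTSW, CCDC85B and FOSL1 peak at 2 h in all 8 animals with Holstein below Angus at 0 h and 8 h, whereas FIBP does not.

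Per kb of gene span, which allows genes to be set side by side, CCDC85B had the highest level of the 4 genes at 2 h in both breeds (40.4 ± 11.02 CPM per kb in Angus and 36.8 ± 7.68 in Holstein). FOSL1 came next with 23.6 ± 3.88 and 21.8 ± 2.54 CPM per kb, and then FIBP with 12.2 ± 0.981 and 11.5 ± 1.31. CTSW was the lowest with 2.97 ± 0.915 and 4.54 ± 1.72 CPM per kb. At 0 h in Holstein the order differed, with FIBP first at 15.4 ± 1.04, followed by CCDC85B at 4.78 ± 0.670, FOSL1 at 2.19 ± 0.443 and CTSW at 0.079 ± 0.011 CPM per kb. At 0 h in Angus, CCDC85B (12.3 ± 7.26), FIBP (10.2 ± 2.66) and FOSL1 (8.30 ± 4.70) lay within 1 SD of each other. At 8 h in Angus the levels were 19.97 ± 7.32 for CCDC85B, 12.9 ± 3.48 for FIBP, 12.8 ± 2.91 for FOSL1 and 0.924 ± 0.272 CPM per kb for CTSW. In Holstein at 8 h, FIBP (9.01 ± 0.861) and CCDC85B (8.74 ± 2.67) lay within 1 SD of each other, above FOSL1 at 6.13 ± 0.725 and CTSW at 0.286 ± 0.043 CPM per kb. Spans with long introns give low values on this scale, and the exon content was not known here.

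The gene-free intervals held reads as well. In the 136 bases between CCDC85B and FOSL1, every base was covered by reads in 24 of 24 samples, and the depth at the least covered base ran from 8 to 465. Its level at 0 h was 2.73, 1.14, 0.864 and 4.07 CPM in Angus and 0.597, 0.306, 0.452 and 0.329 CPM in Holstein. At 2 h it was 8.31, 6.15, 8.17 and 7.93 CPM in Angus and 7.39, 8.25, 6.54 and 7.23 CPM in Holstein. The samples of the breeds were thus separate at 0 h and interleaved at 2 h. Holstein lay wholly below Angus at 0 h in 8.82% of all rows tested. The level at 8 h was 3.53 ± 0.894 CPM in Angus and 1.73 ± 0.259 CPM in Holstein (SD, n = 4). Its counts were 2.97% to 5.18% of those of FOSL1 on the group means. The interval is little longer than the 86.8 to 108.4 bases that a count covered in it, so a read can reach from it into a flanking gene row.

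The interval between the starts of FIBP and CCDC85B was the most abundant of the 3. In Angus it had 8.52, 4.52, 2.96 and 14.4 CPM at 0 h and 31.1, 25.7, 42.4 and 32.4 CPM at 2 h. In Holstein it had 1.72, 1.14, 1.60 and 1.60 CPM at 0 h and 35.4, 35.4, 24.2 and 26.6 CPM at 2 h. At 8 h the mean was 15.1 ± 3.97 CPM in Angus and 7.16 ± 0.861 in Holstein. None of the 24 samples had reads over every base of it. The 195 bases between the 3′ ends of CTSW and FIBP held few reads, from 0 to 84 counts per sample. Its mean level in Angus was 0.069 ± 0.038 CPM at 0 h, 0.609 ± 0.204 at 2 h and 0.192 ± 0.019 at 8 h. In Holstein it was 0.007 ± 0.009, 0.728 ± 0.325 and 0.052 ± 0.044 CPM, and at 0 h the 4 Holstein samples held 1, 1, 0 and 0 counts, which is under the limit of 3 counts. The interval did not pass the filter on low values in the comparisons below and was not tested.

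The question of the first comparison was which rows respond to LPS when the breeds are combined, 8 samples per hour. A row was called when the false discovery rate (FDR, Benjamini-Hochberg over all rows tested) was under 0.05, the fold change at least 2 and the average level above 1 CPM. At 2 h, 3 of the 3 tested rows that entered by position were called higher than at 0 h, against 2.08% of the 20157 rows tested. FOSL1 rose by a log2 fold change of 2.12 (standard error 0.38, edgeR likelihood-ratio test, FDR = 1.48e-06) and CCDC85B by 2.18 (0.32, edgeR FDR = 3.45e-09), each more than 4-fold. The interval between FIBP and CCDC85B rose by 2.80 (0.44, edgeR FDR = 6.43e-08). These comparisons use the samples in which the locus was noticed, and the shares over all rows are the background, not a test of the locus. Each of the 3 rows also adjoins a row that had been noticed and may share reads with it, so they are not taken as independent of the noticed rows.

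The rows that had been noticed had these values at 2 h, without a test. The log2 fold change of CTSW was 4.24 (standard error 0.43), which is 18.9-fold, and it was 4.89 without Angus animal 4. That of the interval between CCDC85B and FOSL1 was 2.51 (0.45), and 3.11 with the animal as a block. Both rows and the 3 above were higher at 2 h in 8 of 8 animals. FIBP, which lies in their midst, had -0.11 (0.15), with 3 of 4 Angus animals higher and 4 of 4 Holstein animals lower. A fit to covered bases in place of its read counts, described with the counting of FIBP below, turned the sign to 0.24.

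At 8 h against 0 h, 0 of the 3 rows tested were called, where 1.42% of 20368 rows were called in either direction. The log2 fold changes were 0.86 (standard error 0.41, edgeR FDR = 0.17) for FOSL1, 0.76 (0.38, edgeR FDR = 0.205) for CCDC85B and 1.30 (0.47, edgeR FDR = 0.0525) for the interval between FIBP and CCDC85B. At an unadjusted p under 0.05, 2 of the 3 rows passed in edgeR and 2 in DESeq2, and 1 in the quasi-likelihood test of edgeR. The spread between animals at 0 h was wide in Angus, and the fit with the animal as a block, which takes each animal against itself, called 2 of them. In that fit FOSL1 rose by 1.16 (edgeR FDR = 1.78e-09) and the interval between FIBP and CCDC85B by 1.72 (edgeR FDR = 1.74e-12). Both were higher at 8 h than at 0 h in 8 of 8 animals. The same rows were called when breed was added as a term or when Angus animal 4 was left out, and without the 4 samples with another counting of COL1A1 only the interval was (1.54, edgeR FDR = 0.00848). Of the rows that had been noticed, the interval between CCDC85B and FOSL1 had a log2 fold change of 1.01 (0.49), and 1.45 with the block, and FIBP had -0.22 (0.19). CTSW fell under the filter on low values.

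From 2 h to 8 h the levels came down again. The 3 rows tested were called lower at 8 h, against 1.61% of the 20291 rows tested. CCDC85B fell by 1.42 on the log2 scale (standard error 0.28, edgeR FDR = 7.61e-06), FOSL1 fell by 1.26 (0.21, edgeR FDR = 2.27e-07) and the interval between FIBP and CCDC85B fell by 1.504 (0.23, edgeR FDR = 5.26e-09). Among the noticed rows, CTSW had a log2 fold change of -2.63 (0.36) and the interval between CCDC85B and FOSL1 of -1.504 (0.22). All 5 of these rows were lower at 8 h than at 2 h in 8 of 8 animals. FIBP had -0.10 (0.14) from its counts and -0.33 from its covered bases.

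Holstein was next compared with Angus, with the counts of the 3 hours summed for each animal. Of the 3 rows tested, 0 were called, where 3.41% of 20456 rows were called in either direction. FOSL1 had -0.56 on the log2 scale (standard error 0.16, edgeR FDR = 0.00552), and the interval between FIBP and CCDC85B had -0.49 (0.18, edgeR FDR = 0.0356), both under the 2-fold limit. With the 4 samples of unlike COL1A1 counting left out of the sums, so that 4 animals lacked an hour, these values were -0.24 (edgeR FDR = 0.629) and -0.12 (edgeR FDR = 0.857). CCDC85B had -0.52 (0.25, edgeR FDR = 0.13), and -0.28 without those samples. At an unadjusted p under 0.05, 3 of the 3 rows passed in edgeR and 3 in DESeq2. Of the noticed rows, CTSW had 0.21 (0.26), and 0.68 without those samples, and FIBP had -0.01 (0.13). In each animal's sum, the 2 h sample held the largest count of CTSW, CCDC85B and FOSL1.

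Within an hour, the breed differences are parts of the contrast on which members were selected, so they are given as values without a test. At 0 h, 3 of the 4 rows that entered by position passed the filter, and 3 of 3 were past the limits in the direction of Holstein lower, as were 2.09% of the 20385 rows tested. FOSL1 had -1.92 on the log2 scale (standard error 0.38), CCDC85B -1.35 (0.39) and the interval between FIBP and CCDC85B -2.32 (0.44). Without the 4 samples with another counting of COL1A1, 3 Angus and 2 Holstein animals remained at 0 h. The values were then -1.44 for FOSL1, -1.11 for CCDC85B and -1.69 for the interval. With each animal left out in turn, the value of CCDC85B ran from -1.59 to -0.975.

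At 2 h, 0 of 3 rows were past the limits, where 4.46% of the 20184 rows tested were so in either direction. The log2 fold changes of Holstein over Angus were -0.12 for FOSL1 (standard error 0.16), -0.14 for CCDC85B (0.23) and -0.12 for the interval between FIBP and CCDC85B (0.19). At 8 h, 3 of 3 rows were past the limits with Holstein lower, as were 1.03% of 20679 rows. FOSL1 had -1.06 (0.17), CCDC85B -1.19 (0.29) and the interval -1.07 (0.21). These folds were just past 2, and without Angus animal 1 all 3 fell under the 2-fold limit, at -0.93, -0.93 and -0.97. Without Angus animal 4 the interval was also under it, at -0.96.

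The rows that had been noticed by the interaction had the following breed differences. CTSW was 0.61 higher in Holstein on the log2 scale at 2 h (standard error 0.32) and its log2 fold change at 8 h was -1.68 (0.26). The interval between CCDC85B and FOSL1 had -0.06 (0.16) at 2 h and -1.02 (0.24) at 8 h. FIBP had 0.61 (0.17) at 0 h, -0.08 (0.13) at 2 h and -0.52 (0.19) at 8 h, so that its sign at 0 h was opposite to that of its neighbours.

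Within each breed, the log2 changes of CTSW, FOSL1 and CCDC85B at 2 h were larger in Holstein, which had the lower levels of these genes at 0 h. FIBP, with the higher level in Holstein at 0 h, had 0.27 (standard error 0.18) in Angus and -0.425 (0.11) in Holstein. CTSW changed by a log2 fold change of 3.24 (standard error 0.48) at 2 h in Angus and by 5.82 (0.33) in Holstein. Animal by animal, its 2 h level was 3.93 to 34.4 times the 0 h level in Angus and 27.0 to 81.9 times in Holstein. FOSL1 changed by 1.52 (0.38) in Angus and 3.32 (0.16) in Holstein, and CCDC85B by 1.73 (0.42) and 2.94 (0.18). The log2 interaction at 2 h, the change in Holstein minus that in Angus, was 2.60 (0.62) for CTSW, 1.81 (0.44) for FOSL1 and 1.23 (0.48) for CCDC85B. It was 2.33 (0.54) for the interval between CCDC85B and FOSL1 and 2.22 (0.51) for that between FIBP and CCDC85B. These values belong to the contrast on which members were selected and share the 0 h samples, so they are no further evidence beside it. Without the 4 samples with another counting of COL1A1, the interaction of CTSW was 2.03.

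At 8 h FIBP changed by a log2 fold change of 0.36 (standard error 0.24) in Angus and -0.77 (0.10) in Holstein, an interaction of -1.14 (0.26). FOSL1 had an interaction of 0.85 (0.45) and CCDC85B of 0.15 (0.52) at that hour.

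The counting of FIBP itself differed between samples. The table gives the mean depth of each row beside its count, and for FIBP a count stood for 58.6 to 59.1 covered bases in the 4 Holstein samples at 0 h. In Angus animal 2 at 0 h and 8 h and Angus animal 3 at 8 h it was 59.4 to 59.9 bases, and in the other 17 samples 68.3 to 85. The 7 samples under 65 bases per count had 57.2 to 68.1 CPM of FIBP, and the other 17 had 32.1 to 53.8 CPM. For the other genes the figure was steady over all samples, with 95.8 to 100.1 for CTSW, 92.0 to 95.8 for CCDC85B and 85.1 to 88.0 for FOSL1. Among 7718 gene rows with at least 500 counts in every sample, the highest value over the lowest had a median of 1.046, and 0.415% of the rows reached the 1.45 of FIBP.

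When FIBP was read from its depth, scaled to 1000000 TMM-scaled counts, part of its pattern was kept. In Angus the mean depth was 0.702 ± 0.103 before LPS, 0.943 ± 0.021 after 2 h and 0.836 ± 0.135 after 8 h (SD, n = 4). In Holstein it was 0.907 ± 0.059, 0.946 ± 0.102 and 0.654 ± 0.029. The breeds, separate at 0 h by count, overlapped at 0 h by depth, with 0.604 to 0.847 in Angus and 0.844 to 0.986 in Holstein. At 8 h the depth was above that at 0 h in 4 of 4 Angus animals and below it in 4 of 4 Holstein animals, as with the counts. At 2 h the depth was above that at 0 h in 4 of 4 Angus and 3 of 4 Holstein animals. The scaled count at 2 h was higher in 3 of 4 Angus animals and lower in 4 of 4 Holstein animals. In a fit to covered bases in place of read counts, the log2 interaction of FIBP was -0.74 at 8 h and -0.38 at 2 h, against -1.14 and -0.68 from the counts. The breed difference of FIBP in that fit was 0.38 at 0 h and -0.36 at 8 h. The part of the counting in the FIBP values was not tested further.

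**Figure D3:**
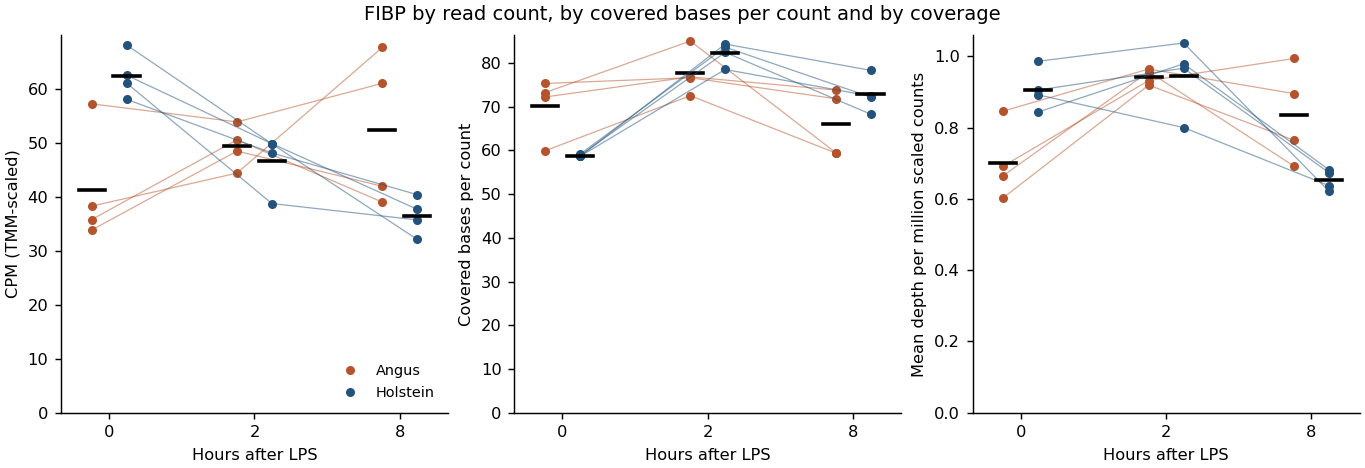
FIBP in each animal against hours after LPS, as CPM (left), as covered bases per count (middle) and as mean depth per 1000000 scaled counts (right), with thick black bars for the mean of 4 animals and axes from 0. The 4 Holstein samples at 0 h have the fewest bases per count, 58.6 to 59.1, and their depth, 0.844 to 0.986, lies within the 0.800 to 1.038 of the Holstein samples at 2 h.

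Whether neighbours moved together was read from each animal and from the calls of the rows that entered by position. At 2 h against 0 h, the 4 adjacent rows from the interval between FIBP and CCDC85B to FOSL1 were higher in every animal. They hold the interval on which the locus was noticed, so this is a description. Of these rows, CCDC85B and the interval between FIBP and CCDC85B are adjacent and entered by position, and both were called higher. Among 9892 pairs of adjacent rows in which both were tested, both were called in the same direction in 119 pairs (1.20%). These were 23.1% of the 516 pairs in which at least 1 row was called. At 8 h against 2 h the 4 rows were lower in every animal. CCDC85B and the interval between FIBP and CCDC85B were again both called, and the share among pairs with a called row was 23.2%. FIBP did not move with these rows. CTSW, on its other side, was higher at 2 h than at 0 h and lower at 8 h than at 2 h in every animal.

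Over the 24 samples, the row whose log2 CPM was most like that of FOSL1 among 20220 compared was the interval between FIBP and CCDC85B, with Pearson's r = 0.992. The interval between CCDC85B and FOSL1 was second (r = 0.985) and CCDC85B came after it (r = 0.963), whereas CTSW was at rank 16 (r = 0.910) and FIBP had r = -0.259. Outside the locus, EIF2C2 (r = 0.941), MYC (r = 0.927), ANKRD28 (r = 0.921), NUP50 (r = 0.920) and F3 (r = 0.917) were nearest to FOSL1. The genes nearest to CTSW were DUSP5 (r = 0.959), PAPD7, NAB2, LOC510442 and CD3EAP, and VASN (r = 0.963) was nearest to CCDC85B. For FIBP the nearest was RAPGEFL1 with r = 0.678. These values describe 24 samples that come from 8 animals and fall into groups by hour and breed, and adjacent rows may share reads.

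The flanking genes were read in the same way. Of the 10 nearest rows with a symbol on each side, 13 of 20 passed the filter at 2 h, and 0 of these 13 were called, where 2.82% of all rows were called in either direction. None of the flanking genes tested was called at 8 h against 0 h, with the hours summed, or between breeds at 0 h, 2 h or 8 h, where the shares over all rows were 1.42%, 3.41%, 3.83%, 4.46% and 3.25%. With so few rows, a count of 0 is near these shares. Their log2 fold changes at 2 h ran from -0.63 for MUS81, a DNA endonuclease subunit, to 0.46 for EIF1AD (edgeR FDR = 3.08e-06 and 1.27e-05, both under 2-fold). RELA, which encodes the p65 subunit of NF-kB and lies 156697 bases to the left, had 0.15 (edgeR FDR = 0.267). EFEMP2, the nearest gene on the left at 3801 bases, had 191 CPM in Angus and 212 CPM in Holstein at 0 h and a log2 fold change of 0.09 at 2 h (edgeR FDR = 0.547). The gene-free row on the left of the window, by contrast, was called. Between EFEMP2 and CTSW (44657897 to 44661697) the mean level was 2.02, 11.4 and 5.30 CPM at 0 h, 2 h and 8 h in Angus and 1.38, 13.7 and 2.73 CPM in Holstein. It rose by a log2 fold change of 2.88 at 2 h (edgeR FDR = 2.53e-27) and by 1.24 at 8 h (edgeR FDR = 6.3e-05). To the right of FOSL1 (44679320 to 44691681) it was 0.505, 1.32 and 0.854 CPM in Angus and 0.227, 1.10 and 0.428 CPM in Holstein, and that row did not pass the filter on low values for LPS.

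**Figure D4:**
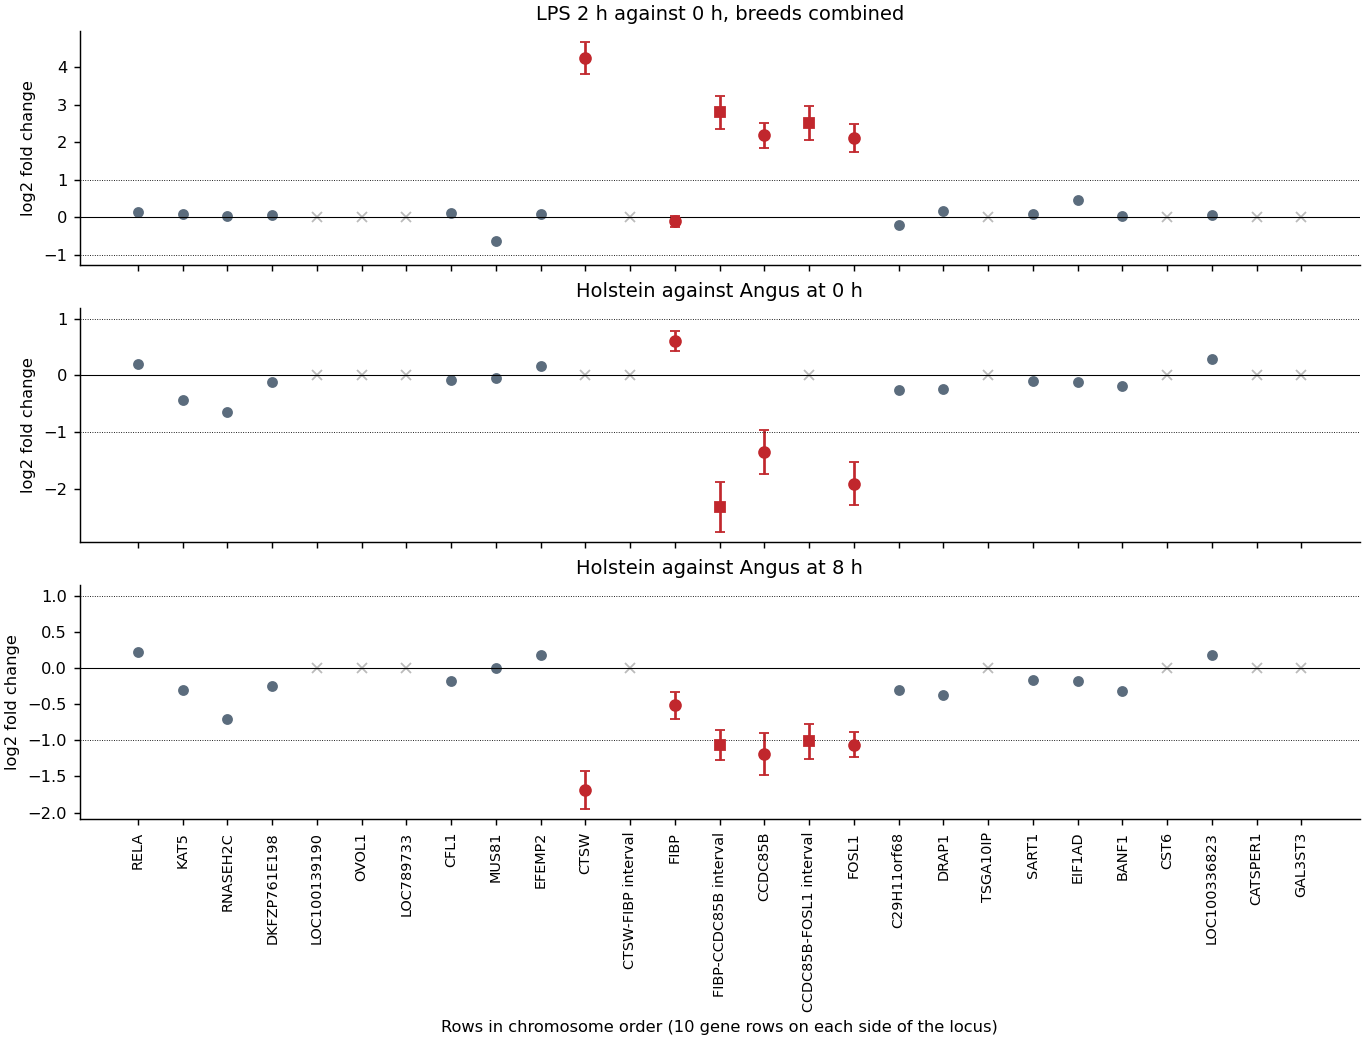
The log2 fold change of each row in chromosome order, for LPS at 2 h against 0 h (top) and Holstein against Angus at 0 h (middle) and 8 h (bottom). Red circles are the genes and red squares the intervals of the locus with bars of 1 standard error, grey circles are the 10 gene rows on each side, light crosses are rows under the filter and dotted lines mark a 2-fold change. The flanking genes lie between -0.63 and 0.46 at 2 h, whereas 5 rows of the locus lie above 2 with FIBP near 0 between them.

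The genes of the locus were set beside lists of related genes. Of the 11 AP-1 genes looked for, 9 were tested at 2 h against 0 h, of which 4 were called higher and 1 lower, where 2.08% of all rows were called higher and 0.739% lower, with a median log2 fold change of 0.93 against -0.004 over all rows. FOSB, another FOS-family partner of JUN, had the largest rise, from 0.507 to 27.8 CPM in Angus and from 0.877 to 91.7 CPM in Holstein (log2 fold change 6.44, edgeR FDR = 6.94e-41). JUNB rose by 1.97 (edgeR FDR = 8.94e-10) and MAFF, a small bZIP protein, by 1.41 (edgeR FDR = 1.74e-11), while FOS had -1.13 (edgeR FDR = 2.89e-06). JUN, the main partner of FRA-1, had 0.03 (edgeR FDR = 0.944). At 8 h, 1 of the 8 tested was called higher (MAFF) and 1 lower (FOS), where 1.07% of all rows were called higher and 0.358% lower.

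Between the breeds, with the hours summed, FOSB was called higher in Holstein with a log2 fold change of 1.72 (edgeR FDR = 2.04e-10). JUNB had 0.92 (edgeR FDR = 0.000213), under 2-fold, FOS 0.34 (edgeR FDR = 0.274) and JUN -0.21 (edgeR FDR = 0.414), beside the -0.56 of FOSL1.

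Among 13 cathepsin genes found of the 15 looked for, 0 of the 12 beside CTSW were called at 2 h (2.82% of all rows in either direction). The median log2 fold change of the 13 was 0.06. CTSC, cathepsin C, which activates serine proteases of immune cells, had 0.77 at 2 h and was called higher at 8 h with 1.45 (edgeR FDR = 2.94e-15). The lysosomal cathepsins CTSB, CTSD and CTSK were among the abundant genes of these cells, and their log2 fold changes at 2 h lay between 0.04 and 0.09. Of the genes of the fibroblast growth factor system, the context of FIBP, 10 rows were tested at 2 h and 0 were called, which is near the 2.82% of all rows. At 8 h, FGF7, a growth factor made by fibroblasts for epithelial cells, was called higher (1.04, edgeR FDR = 1.27e-07) and FGFR3, a receptor, lower (-1.36, edgeR FDR = 0.00234) of 11 tested rows. Over all rows at 8 h, 1.07% were called higher and 0.358% lower.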

How the data were processed

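Polyadenylated RNA of 24 bovine fibroblast samples was sequenced with Illumina TruSeq libraries. The authors filtered the reads, aligned them to UMD v3.1 with NextGENe 2.3.4 and deposited raw read counts per row, without normalization, for whole gene spans and gene-free intervals. The signal columns of the deposited tables (lowest and mean coverage per base) were used to check the counting. Summed counts were 1.5 to 1.712 times the matched reads, so that a read can count more than once. Whether a read counts in more than 1 row is not known. Rows without a symbol took 12.28% to 20.53% of the counts and stayed in library sizes and tests, as each is a genomic interval. Whether strand was used is not given in the sources used here.

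Differential expression was computed with edgeR 4.0.16 in R 4.3.3 (TMM scaling, generalized linear model likelihood-ratio test, rows with 1 CPM or more in at least 50% of the samples compared, Benjamini-Hochberg over all rows). This followed the methods of the study, and edgeR's quasi-likelihood test and DESeq2 1.42.0 were alternatives. Group means are TMM-scaled CPM with the SD over 4 animals. The scripts were tested on simulated data. Genes were named by rule: all rows of the locus, 10 gene rows on each side, list members called at 2 h or 8 h, and the 5 genes most alike by correlation. MUS81, EIF1AD, RELA, EFEMP2, JUN, CTSB, CTSD and CTSK were singled out after their values were seen. Members and lists were chosen with earlier results of these data known.

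Samples of an animal were paired by the labels. The main LPS fits had the hour as their only term, so their standard errors and FDR do not use this pairing. The fit with the animal as a block was an alternative. After group means were removed, the 0 h and 2 h samples of an animal correlated with a mean r of 0.659 across rows (lowest 0.546), against -0.218 for different animals of a breed, and the 0 h and 8 h samples with 0.619 against -0.206. No samples were duplicates: between samples of a group (36 pairs), chi-square divided by its degrees of freedom was 33.0 or more.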

Additional observations from a re-analysis of the deposited data

Results flagged for a closer look

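The FIBP level of Holstein animal 3 at 2 h, 38.7 CPM, stood apart below the other 3 animals, which had 48.1 to 49.8 CPM. The FOSL1 level of Holstein animal 2 at 0 h, 9.96 CPM, stood apart below the others at 15.4 to 16.2 CPM, and this is one of the 4 samples in which COL1A1 was counted in another way. These were 2 of 42 groups of 4 looked at, and chance flags about 1 in 20.

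FIBP moved in opposite directions in the breeds from 0 h to 8 h, higher in 4 of 4 Angus animals and lower in 4 of 4 Holstein animals, with a log2 interaction of -1.14. Members were selected on this difference, so it was not tested here.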

How the results depend on the processing

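Calls of the locus here are those of the 3 tested rows that entered by position. The 5 rows past the limits at 2 h against 0 h and at 8 h against 2 h were 5 when each animal was left out in turn, and 3 in both when gene rows alone were fitted, since the intervals then drop out. At 8 h against 0 h the count moved from 0 to 3 with the animal as replicate block, to 3 with breed as an added term, and to 1 with no filter on low counts (CTSW), without the 4 samples, with covered bases in place of counts (CTSW, log2 fold change 1.61) or with gene rows alone. Leaving out 1 animal gave 0 to 3 rows, with 3 without Angus animal 4 and 1 without Holstein animal 1, 3 or 4. The block changed no other call of the locus. With the hours summed, the FDR alone called 2 rows in place of 0. No call of these rows reversed. Over all rows, the FDR alone called 4436 at 2 h and 2606 at 8 h, and gene rows alone 370 at 2 h and 367 from 2 h to 8 h. Without Angus animal 4 the breed comparison called 515 rows at 0 h and 446 at 8 h, and 259 at 0 h without the 4 samples. Without Angus animal 3 it called 1133 at 8 h, against 673, and with the hours summed 1081, against 697 with all animals and 421 without Angus animal 4. The fits to covered bases and to gene rows alone were chosen after seeing the data. DESeq2 gave no adjusted p for the interval between CCDC85B and FOSL1 at 2 h. Depth limited CTSW at 0 h in Holstein (11 to 29 counts) and the interval between CTSW and FIBP.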
